A study of Mus musculus with 6 samples.

Results

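The genes described here are 51 enzymes of the urea cycle and of amino acid breakdown, listed by name and grouped by pathway branch. The probe sets that the array annotation gives to exactly 1 of these genes were read, and they covered 43 of the 51 genes with 680 probe sets (7 to 33 per gene, median 14) out of 229581 on the array. The other 8 genes (Cps1, Ass1, Gls2, Acmsd, Amdhd1, Sdsl, Amt and Agxt2) had no such probe set here and were not analysed. For Ass1, 20 probe sets were annotated to it together with another gene, so its reading could not be separated. All 43 covered genes were above the floor set by olfactory, vomeronasal and taste receptor genes, which a liver is not known to use.

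RNA was measured on 6 mouse exon arrays, which read each gene through many short probe sets along its exons. The 3 SRSF3HKO arrays carry liver RNA of mice that lack the splicing regulator SRSF3, an SR protein, in hepatocytes, and the 3 WT arrays carry liver RNA of wild-type littermates. All mice were 1 month old and untreated. The Cre driver, the strain, the sex and the deleted part of Srsf3 are not given in the sources used here. The labels do not say whether each WT array is a separate animal. The spread behind the p-values is thus that between these arrays and may in part be technical. In each group the third array differs from the other arrays in Y-linked signal, given below, so it is not a repeat of their RNA.

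The liver is the main site of amino acid breakdown. Aminotransferases and dehydrogenases move amino nitrogen to glutamate, ammonia and aspartate, the urea cycle turns that nitrogen into urea, and the carbon skeletons are broken down in branches for the aromatic, branched-chain and small amino acids. Many of these genes belong to the adult hepatocyte programme and respond to glucagon and glucocorticoids.

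A level is the median over a gene's probe sets of log2(intensity + 16). A change is the mean of the SRSF3HKO arrays minus the mean of the WT arrays on that scale, given with the standard error of limma's moderated test, and a gene was called at an adjusted p under 0.05 (Benjamini-Hochberg over all 11709 genes above the floor). The array median intensities lay between 75.3 and 85.9 for WT and between 81.5 and 89.6 for SRSF3HKO. Across genes, the levels correlated at 0.973 to 0.981 among the WT arrays, 0.904 to 0.948 among the SRSF3HKO arrays and 0.851 to 0.920 between the groups. Srsf3 itself had levels of 9.79, 9.24 and 9.35 on the WT arrays and 10.30, 9.10 and 9.78 on the SRSF3HKO arrays (change 0.26 ± 0.31, limma adjusted p = 0.626), and since the deleted part is unknown this level does not check the genotype labels.

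Of the 43 genes, 12 fell in the SRSF3HKO livers and none passed the test as higher (limma, 3 arrays a group). The 12 are Otc, Fah, Afmid, Kynu, Haao, Uroc1, Agxt, Aldh7a1, Mccc2, Hibadh, Prodh2 and Aldh4a1, with decreases of 1.64-fold to 3.09-fold. That is 27.9% of the genes, where 11.9% of all genes tested were called, 5.03% as lower and 6.85% as higher. At an unadjusted p under 0.05 the counts were 17 lower and 2 higher, where 11.4% of all genes tested were lower and 17.6% higher at that threshold. The median change was -0.44 over the 43 genes and 0.08 over all genes tested, and 31 of the 43 changes were negative. In bulk liver, fewer hepatocytes and less RNA per hepatocyte cannot be told apart.

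The 43 genes are strongly expressed in liver, and their share of calls was therefore also set beside genes of high signal, a limit chosen after the values were seen. Among all genes with a mean log2 level of at least 10, 14% were called lower, 9.09% higher and 23.1% in either direction. Of the 29 listed genes in that range, 8 were called lower and none higher, and their median change was -0.42 against 0.02 for all 957 genes of that range. The remaining 14 listed genes held 4 of the lower calls.

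**Figure D1:**
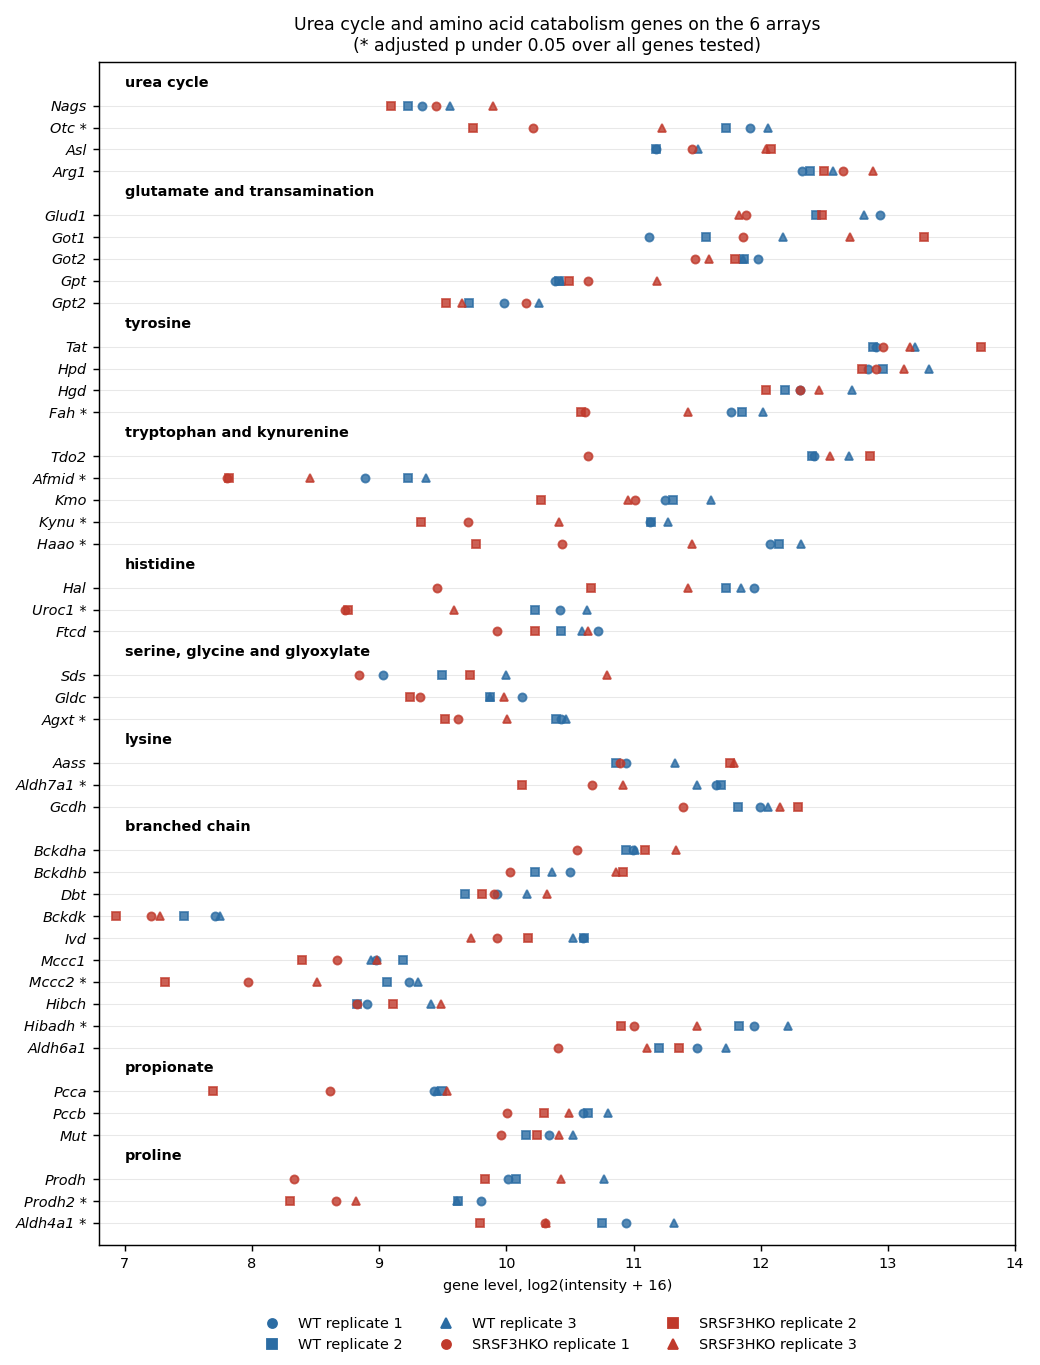
Gene level (horizontal axis, log2 of intensity + 16) of the 43 measured genes, by pathway branch, with a symbol for each of the 3 WT arrays (blue) and 3 SRSF3HKO arrays (red). Asterisks mark the 12 called genes. The SRSF3HKO arrays differ more among themselves than the WT arrays do: the median SD of the 43 genes is 0.40 in SRSF3HKO and 0.16 in WT.

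**Figure D2:**
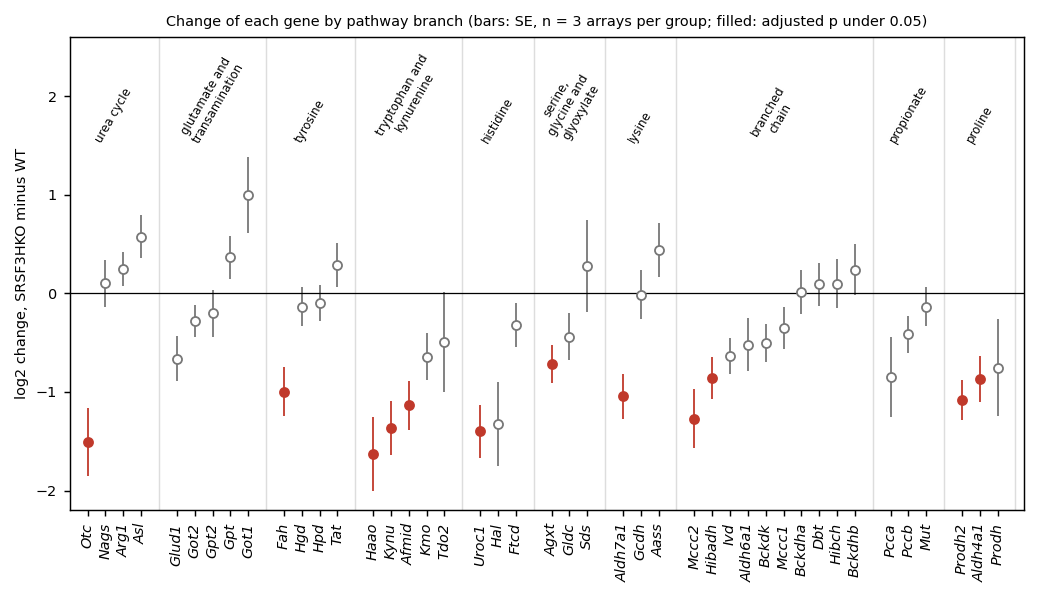
Change in log2 level (SRSF3HKO minus WT) with its standard error for the 43 genes, by branch, with called genes as filled points. The 12 called genes lie between -1.63 and -0.72 and come from 8 of the 10 branches.

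Of the 4 measured urea cycle genes, 1 was called. Otc, the mitochondrial enzyme that joins carbamoyl phosphate to ornithine, had levels of 11.91, 11.73 and 12.06 on the WT arrays and 10.21, 9.74 and 11.22 on the SRSF3HKO arrays. The groups did not overlap, and the decrease was 2.85-fold (change -1.51 ± 0.35, limma adjusted p = 0.0305). Of the cytosolic enzymes downstream, Ass1 was not measured, and Asl and Arg1 were not called. Asl, which splits argininosuccinate into arginine and fumarate, had levels of 11.17, 11.18 and 11.51 on WT arrays and 11.46, 12.08 and 12.04 on SRSF3HKO arrays (change 0.57 ± 0.22, limma adjusted p = 0.126). Arg1, which releases urea from arginine, stood at 12.33, 12.39 and 12.57 against 12.64, 12.50 and 12.88 (change 0.25 ± 0.17, limma adjusted p = 0.373). Both genes overlapped between the groups by a single array and neither passed the test. Nags, which makes the activator of carbamoyl phosphate synthetase, gave 0.10 ± 0.24 (limma adjusted p = 0.821). Whether Otc differs from these genes was not tested.

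None of the 5 measured genes of glutamate and transamination passed the test. Glud1, the glutamate dehydrogenase that frees ammonia, stood at 12.94, 12.43 and 12.81 on WT arrays and at 11.88, 12.48 and 11.83 on SRSF3HKO arrays (change -0.67 ± 0.23, limma adjusted p = 0.0972). Its second SRSF3HKO array lay inside the WT range. The aminotransferases come as pairs, with a cytosolic and a mitochondrial enzyme for the same amino acid. For aspartate, cytosolic Got1 had levels of 11.12, 11.57 and 12.18 on WT arrays and 11.86, 13.29 and 12.70 on SRSF3HKO arrays (change 0.99 ± 0.39, limma adjusted p = 0.132), and mitochondrial Got2 had 11.98, 11.87 and 11.86 against 11.48, 11.79 and 11.59 (change -0.28 ± 0.16, limma adjusted p = 0.294). For alanine, cytosolic Gpt had a change of 0.36 ± 0.21 and mitochondrial Gpt2 of -0.20 ± 0.24 (limma adjusted p = 0.300 and 0.618). In both pairs the cytosolic estimate is positive and the mitochondrial one negative, but none of the 4 genes passed the test and the difference within a pair was not tested. Over compartments, 5 of 25 mitochondrial genes (20%) and 5 of 16 cytosolic genes (31.2%) were called lower. Both genes placed in more than 1 compartment (Agxt and Aldh7a1) were also called lower. Of all genes tested, 5.03% were called lower. Whether the compartments differ was not tested.

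The kynurenine route of tryptophan breakdown held 3 of the 12 calls among its 5 measured genes, and all 5 changes were negative (median -1.14). Haao, the 3-hydroxyanthranilate dioxygenase that leads toward quinolinate and NAD, had the largest decrease of the 43 genes. Its levels were 12.07, 12.14 and 12.32 on WT arrays and 10.43, 9.76 and 11.46 on SRSF3HKO arrays, which do not overlap (3.09-fold lower, change -1.63 ± 0.38, limma adjusted p = 0.0314). Kynu, the kynureninase just before it, had levels of 11.13, 11.14 and 11.27 against 9.70, 9.33 and 10.42 (2.58-fold lower, change -1.37 ± 0.27, limma adjusted p = 0.0200). Its SRSF3HKO arrays all lay below the WT arrays. Afmid, the formamidase that yields kynurenine, had levels of 8.89, 9.23 and 9.37 against 7.80, 7.82 and 8.46 (2.20-fold lower, change -1.14 ± 0.25, limma adjusted p = 0.0256), again without overlap. Kmo, the mitochondrial monooxygenase between kynurenine and 3-hydroxykynurenine, was also lower on every SRSF3HKO array but did not pass the test (change -0.64 ± 0.24, limma adjusted p = 0.119).

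The first enzyme of the route, tryptophan dioxygenase Tdo2, behaved otherwise. Its levels were 12.42, 12.40 and 12.69 on WT arrays and 10.64, 12.86 and 12.54 on SRSF3HKO arrays. A single SRSF3HKO array was low and the other two lay at the WT level, so the change of -0.49 ± 0.51 (limma adjusted p = 0.566) describes no array of the group, and without that first array it was 0.20.

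Histidine breakdown starts with Hal, the histidine ammonia-lyase, and goes on with Uroc1, the urocanate hydratase. Uroc1 had levels of 10.42, 10.22 and 10.63 on WT arrays and 8.73, 8.76 and 9.59 on SRSF3HKO arrays, without overlap (2.63-fold lower, change -1.40 ± 0.27, limma adjusted p = 0.0169). Hal had levels of 11.95, 11.72 and 11.85 against 9.45, 10.66 and 11.43. Its SRSF3HKO arrays all lay below WT, but far apart from each other (SD 0.996 against 0.112 in WT), and the change of -1.33 ± 0.43 was not called (limma adjusted p = 0.0823). Ftcd, which passes the formimino group to folate at the end of the branch, gave -0.32 ± 0.22 (limma adjusted p = 0.385).

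Of the 4 listed genes of tyrosine breakdown, 1 was called, the last enzyme of the route. Fah, the fumarylacetoacetase whose loss causes hereditary tyrosinaemia in humans, had levels of 11.76, 11.85 and 12.01 on WT arrays and 10.62, 10.59 and 11.43 on SRSF3HKO arrays. These do not overlap (2.00-fold lower, change -1.0 ± 0.25, limma adjusted p = 0.0388). Tat, Hpd and Hgd, the aminotransferase and the dioxygenases that come before it, had changes of 0.29 ± 0.22, -0.10 ± 0.18 and -0.14 ± 0.20, with overlapping groups and limma adjusted p from 0.429 to 0.762. Whether Fah differs from these enzymes was not tested.

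Agxt, which removes glyoxylate with alanine as the amino donor, had levels of 10.43, 10.39 and 10.47 on WT arrays and 9.62, 9.52 and 10.003 on SRSF3HKO arrays (1.64-fold lower, change -0.72 ± 0.19, limma adjusted p = 0.0476). The groups did not overlap, and its adjusted p was the highest among the called genes. Gldc, the P protein of the glycine cleavage system, gave -0.44 ± 0.24 (limma adjusted p = 0.262). Sds, the serine dehydratase, ran from 9.03 to 9.99 on WT arrays and from 8.84 to 10.79 on SRSF3HKO arrays, so that the groups overlapped (limma adjusted p = 0.741).

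For lysine, Aldh7a1, the dehydrogenase of aminoadipate semialdehyde, had levels of 11.65, 11.69 and 11.50 on WT arrays and 10.67, 10.12 and 10.92 on SRSF3HKO arrays (2.06-fold lower, change -1.04 ± 0.23, limma adjusted p = 0.0256). The groups did not overlap. The enzyme just upstream, Aass, gave 0.44 ± 0.27 (limma adjusted p = 0.324) and the one further down, Gcdh, gave -0.01 ± 0.25 (limma adjusted p = 0.981), with overlapping groups for both.

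Among the 10 measured branched-chain genes, 2 were called, and both act downstream of the keto acid dehydrogenase. Mccc2, the beta subunit of methylcrotonyl-CoA carboxylase in leucine breakdown, had levels of 9.24, 9.06 and 9.30 on WT arrays and 7.97, 7.31 and 8.51 on SRSF3HKO arrays (2.41-fold lower, change -1.27 ± 0.30, limma adjusted p = 0.0326). Hibadh, the hydroxyisobutyrate dehydrogenase of valine breakdown, had levels of 11.95, 11.83 and 12.21 against 11.005, 10.90 and 11.50 (1.82-fold lower, change -0.86 ± 0.21, limma adjusted p = 0.0373). Neither gene overlapped between the groups. The partner subunit Mccc1 had a change of -0.35 (limma adjusted p = 0.315). Aldh6a1, the methylmalonate semialdehyde dehydrogenase that follows Hibadh, had -0.52 (limma adjusted p = 0.246) and Hibch, the hydrolase before it, 0.095 (limma adjusted p = 0.840). The E1 and E2 subunits of the branched-chain keto acid dehydrogenase, Bckdha, Bckdhb and Dbt, had changes of 0.01, 0.24 and 0.09 (limma adjusted p from 0.587 to 0.980). Bckdk, the kinase that inhibits this complex, was lower on every SRSF3HKO array, at 7.21, 6.93 and 7.27 against 7.71, 7.46 and 7.75, without passing the test (change -0.50 ± 0.19, limma adjusted p = 0.132). Ivd, the isovaleryl-CoA dehydrogenase, had levels of 10.60, 10.61 and 10.52 against 9.93, 10.17 and 9.72. It did not overlap either and was the nearest of the genes not called (change -0.64 ± 0.18, limma adjusted p = 0.0597).

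None of the 3 propionate genes was called. Pcca, the alpha subunit of propionyl-CoA carboxylase, had levels within 9.43 to 9.49 on the WT arrays and of 8.61, 7.69 and 9.53 on the SRSF3HKO arrays. The third SRSF3HKO array thus lay at the WT level and the other two well below it (change -0.85 ± 0.41, limma adjusted p = 0.209). Pccb, its beta subunit, gave -0.42 ± 0.19 (limma adjusted p = 0.192) and the mutase Mut -0.13 ± 0.20 (limma adjusted p = 0.703).

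In the proline branch 2 of 3 genes were called. Prodh2, the hydroxyproline dehydrogenase, had levels of 9.80, 9.62 and 9.61 on WT arrays and 8.66, 8.30 and 8.82 on SRSF3HKO arrays. It had the lowest adjusted p of the 43 genes, with no overlap (2.12-fold lower, change -1.08 ± 0.20, limma adjusted p = 0.0160). Aldh4a1, the dehydrogenase shared by the proline and hydroxyproline routes, had levels of 10.94, 10.75 and 11.32 against 10.31, 9.79 and 10.31 (1.83-fold lower, change -0.87 ± 0.23, limma adjusted p = 0.0450), also without overlap. Prodh, the proline dehydrogenase, ran from 10.01 to 10.76 on WT arrays and from 8.33 to 10.43 on SRSF3HKO arrays, so that the groups overlapped (change -0.76 ± 0.49, limma adjusted p = 0.349).

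Counted without the test, the 3 SRSF3HKO arrays lay below the 3 WT arrays for 18 of the 43 genes (41.9%), where 14% of all genes tested did so. They lay above them for Gpt alone, where 21.6% of all genes tested did so, and 35.6% of all genes were apart in either direction. The 18 are the 12 called genes with Got2, Kmo, Hal, Bckdk, Ivd and Pccb.

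The decreases were not equally deep on the SRSF3HKO arrays. Relative to the WT mean, the median of the 43 genes was -0.65, -0.38 and -0.05 on the first, the second and the third SRSF3HKO array, where the median of all genes tested was 0.11, 0.07 and 0.04. The third array was the highest of its group for 12 of the 12 called genes and for 31 of the 43. The second was the lowest for 10 of the 12.

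The arrays also differ in Y-linked transcripts, which no label explains. The Y-linked gene Eif2s3y had levels of 8.62, 8.36 and 4.18 on the WT arrays and 4.16, 4.17 and 8.99 on the SRSF3HKO arrays, which places this signal on 2 of the WT arrays and 1 of the SRSF3HKO arrays. Within the arrays with the signal, the changes of the 12 called genes were -0.89 to -0.38, and the median of the 43 genes was -0.10. Within the arrays without it, the 12 changes were -2.22 to -0.90 and the median was -0.63. Since the groups of these 12 genes do not overlap, their sign is fixed in either set. The sizes go with the ranks of the arrays as well as with the signal. The only SRSF3HKO array with the signal is the third, the highest of its group for all 12 genes. The only WT array without it is the third, the highest of its group for 10 of the 12. For the smaller decreases within the arrays with the signal, the signal and these ranks cannot be told apart. Haao, for example, had -0.65 within the first set and -2.22 within the second, while Prodh2 had -0.89 and -1.13. These sets hold 3 arrays each and allow no test. In a fit that carries presence of this signal as a term, Prodh2 (limma adjusted p = 0.0470) and Uroc1 (limma adjusted p = 0.0477) were the only genes of the 43 called.

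**Figure D3:**
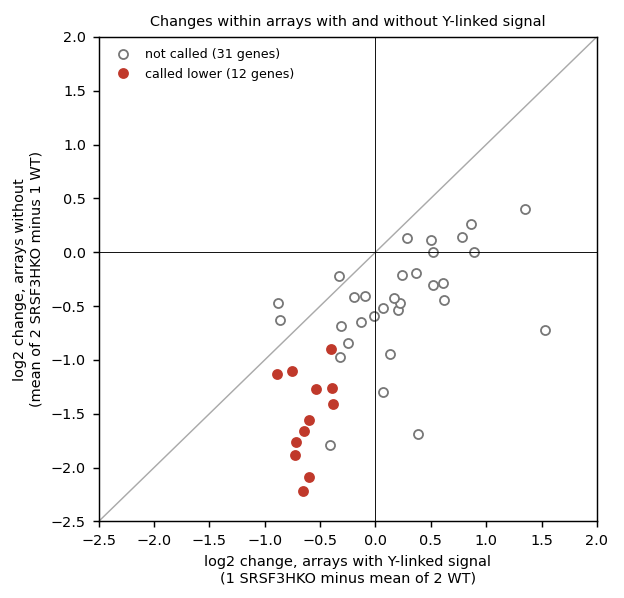
Change in log2 level (SRSF3HKO minus WT) of the 43 genes within the arrays without Y-linked signal (1 WT, 2 SRSF3HKO; vertical axis) against that within the arrays with it (2 WT, 1 SRSF3HKO; horizontal axis). Filled points are the 12 called genes, at -0.89 to -0.38 on the horizontal and -2.22 to -0.90 on the vertical axis. Their sign is fixed, since their groups do not overlap. For their sizes, the signal cannot be told apart from the ranks of the third SRSF3HKO and the third WT array. The diagonal marks equal change.

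Markers of other cell types were read on the same arrays. The 8 macrophage markers summed to intensities of 2405 to 2717 on WT arrays and 3171 to 16309 on SRSF3HKO arrays. The sum was highest on the first SRSF3HKO array. Of the 8, 1 was called higher, Marco (change 2.78 ± 0.73). That is 12.5%, where 11.9% of all genes tested were called, 6.85% as higher. The list did not move as a group. Cd68, Lyz2, Marco and Vsig4 lay above WT on every SRSF3HKO array. Adgre1, Clec4f, Csf1r and Timd4 lay above WT on the first SRSF3HKO array and below every WT array on the second and the third. The 6 measured cholangiocyte markers summed to 497 to 710 on WT arrays and 838 to 2988 on SRSF3HKO arrays, a gap carried by Spp1: without it the sums were 189 to 421 and 246 to 483, which overlap, and none of the markers tested was called. The 13 measured hepatocyte markers summed to 129387 to 136698 on WT arrays and 101785 to 120547 on SRSF3HKO arrays, with 2 called lower (Cyp2f2 and Fga) and albumin changed by -0.02. The summed intensities of the groups did not overlap for the macrophage and hepatocyte lists and overlapped for the endothelial, stellate, erythroid, lymphocyte, neutrophil, pancreatic and kidney lists. The part of other cell types in the decreases was not tested.

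The calls also rest on all 3 WT arrays. Without the first, the second or the third WT array none of the 43 genes was called, and 244, 274 and 434 of all genes were. Uroc1 then had limma adjusted p of 0.0821, 0.0664 and 0.0758 and Prodh2 of 0.0876, 0.0710 and 0.0634. Without the first SRSF3HKO array 4 genes were called lower (Aldh7a1, Kynu, Prodh2 and Uroc1) and 2 higher, Asl (change 0.77, limma adjusted p = 0.0447) and Got1 (change 1.37, limma adjusted p = 0.0345). Without the second, 14 were called lower, adding Glud1 and Ivd. Without the third, 13 were called lower, adding Hal and Pcca and losing Aldh4a1. Over all genes, 1185, 2155 and 1067 were called without the first, the second and the third SRSF3HKO array, against 1391 with all arrays.

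**Figure D4:**
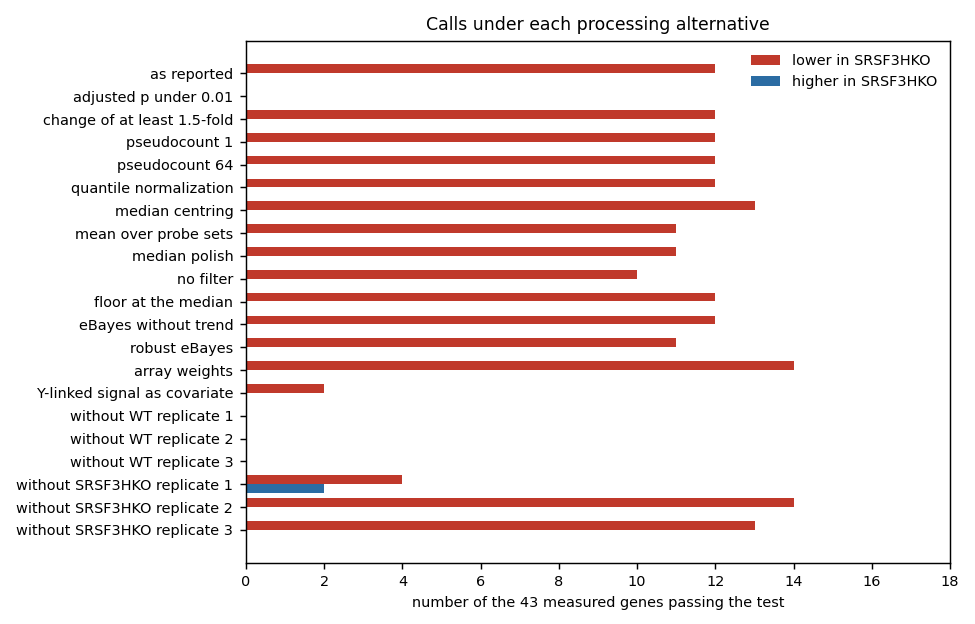
Number of the 43 genes called lower or higher in SRSF3HKO (horizontal axis) under each processing alternative (vertical axis). The count is 12 lower as reported, 0 without any of the WT arrays, and 2 in the fit with a term for Y-linked signal.

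The probe sets were also tested singly. Of 674 probe sets above the probe set floor, 134 (19.9%) were called lower and 4 higher, where 9.04% of all 157861 probe sets were called, 4.32% as lower and 4.73% as higher. Probe sets of 1 gene share their RNA and are not replicates. In the 12 called genes, 186 of 187 probe sets had a negative change and 126 were called lower. These genes were called on the median of the same probe sets, so these counts are no separate support for the calls. All 11 probe sets of Haao were called lower, as were 15 of 16 of Kynu and 21 of 26 of Uroc1. Agxt is the exception, with 0 of 12 called and its call resting on the gene level. The 4 probe sets called higher belong to Asl (1 probe set, change 0.82), Got1 (2 probe sets, both 1.03) and Tat (1 probe set, 0.77), genes that were not called themselves.

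Since SRSF3 acts on splicing, each probe set was also tested for a change apart from the rest of its gene. With limma's diffSplice, 1 of 674 probe sets was called, in 1 of the 43 genes, where 0.666% of all probe sets and 6.16% of all genes tested were. The probe set lies in Gpt2 and bears the number 5319093. Its intensities were 976, 689 and 1195 on the WT arrays and 1494, 13.8 and 16.3 on the SRSF3HKO arrays. It was near background on the second and the third SRSF3HKO arrays and above every WT array on the first. It changed by -2.81 relative to the rest of the gene (diffSplice adjusted p = 0.00177), while the other 15 Gpt2 probe sets changed by -0.63 to 0.09. The 2 low arrays lie under the probe set floor, so the size depends on the pseudocount of 16: the relative change was -3.42 with a pseudocount of 1 and -1.99 with 64. A splicing index computed per array, which called 0.0168% of all probe sets, called none of the 674 (limma adjusted p = 0.451 for this one), and where on the transcript it lies is not given in the files. Without the first SRSF3HKO array the relative change was -4.50 at the pseudocount of 16 (diffSplice adjusted p = 1.47e-17). That fit leaves out the only SRSF3HKO array that was not low and keeps the 2 low ones. Because diffSplice pools the spread over all probe sets of a gene, its p does not measure how far this probe set varies between arrays. Without the first WT, the second SRSF3HKO or the third SRSF3HKO array the probe set was not called.

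**Figure D5:**
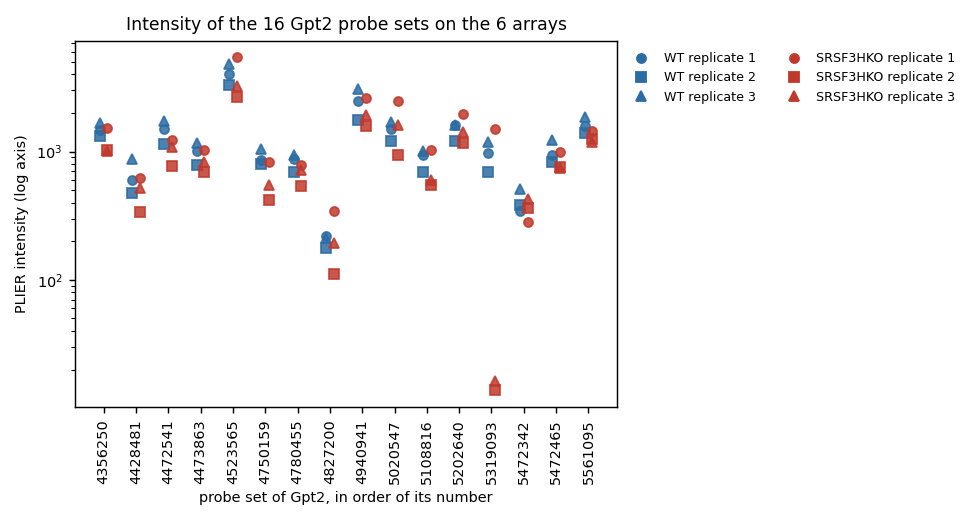
Intensity (log scale) of the 16 Gpt2 probe sets on the 3 WT and 3 SRSF3HKO arrays, in order of probe set number. Probe set 5319093 drops to 13.8 and 16.3 on 2 SRSF3HKO arrays and stands at 1494 on the first, while the other 15 probe sets changed by -0.63 to 0.09 on the log2 scale.

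Promoter sequence was compared because genes of separate branches fell together. RefSeq promoters (GRCm38.p6, 250 bases before to 50 bases after the transcript start of the table) were matched for 40 of the 51 genes, among them 10 of the 12 called genes and 25 of the 31 measured genes not called. The promoters of Uroc1, Prodh2, Haao and Otc are shown for the histidine, proline, kynurenine and urea branches, with capitals marking the CCAAT motif on either strand (read as ATTGG on the other strand). They lie at chr6:90333039-90333338 (plus strand), chr7:30493408-30493707 (plus strand), chr17:83846741-83847040 (minus strand) and chrX:10252055-10252354 (plus strand), in that order.
Uroc1: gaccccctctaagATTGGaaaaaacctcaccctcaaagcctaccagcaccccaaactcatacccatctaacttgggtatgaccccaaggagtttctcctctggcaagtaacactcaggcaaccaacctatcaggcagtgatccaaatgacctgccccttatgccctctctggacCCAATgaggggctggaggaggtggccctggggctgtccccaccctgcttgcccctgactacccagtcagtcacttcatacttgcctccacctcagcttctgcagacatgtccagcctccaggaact
Prodh2: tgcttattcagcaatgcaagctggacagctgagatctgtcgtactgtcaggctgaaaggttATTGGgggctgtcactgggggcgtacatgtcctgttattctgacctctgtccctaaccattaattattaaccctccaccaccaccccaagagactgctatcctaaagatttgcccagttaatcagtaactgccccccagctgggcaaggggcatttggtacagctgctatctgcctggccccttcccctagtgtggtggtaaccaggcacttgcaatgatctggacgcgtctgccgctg
Haao: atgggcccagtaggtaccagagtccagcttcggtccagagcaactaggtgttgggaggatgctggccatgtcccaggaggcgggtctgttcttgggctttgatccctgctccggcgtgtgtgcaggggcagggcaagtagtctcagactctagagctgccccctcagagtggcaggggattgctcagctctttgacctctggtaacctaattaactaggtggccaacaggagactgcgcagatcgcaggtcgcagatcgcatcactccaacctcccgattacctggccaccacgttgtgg
Otc: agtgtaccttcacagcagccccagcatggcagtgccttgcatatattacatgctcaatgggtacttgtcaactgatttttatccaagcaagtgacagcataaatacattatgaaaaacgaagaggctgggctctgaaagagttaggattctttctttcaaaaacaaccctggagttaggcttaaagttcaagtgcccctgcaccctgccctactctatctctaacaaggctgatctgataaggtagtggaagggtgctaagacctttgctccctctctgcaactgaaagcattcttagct
Where a listed gene had several promoter entries, the one of lowest coordinate was read, and for all promoters the first listed. The Haao window lies inside the gene, which is on the minus strand and reaches up to position 83848981. The shown windows of Haao and Otc hold no CCAAT. The motif was found in 5 of the 10 called promoters, in 14 of the 25 others and in 37.9% of all 27025 promoters. The C/EBP motif TTGCNNAA was in 1 of 10, 4 of 25 and 10.8%, and the CRE core TGACG in 0 of 10, 3 of 25 and 21.0%. The TATA motif TATAAA was in 0 of 10, 6 of 25 and 14.2%. Both strands were searched and none of these motifs contains another. A match is a description of the letters and not a site.

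Other genes of the same pathways, from lists outside the 51, were read from the same fit. Of 57 other catabolic genes tested, 15 were called lower and 2 higher (29.8%), with a median change of -0.38. The higher calls include Arg2, which passed the floor only through its SRSF3HKO arrays. Of all genes tested, 11.9% were called, 5.03% as lower and 6.85% as higher. Among all genes with a mean log2 level of at least 10, 23.1% were called. By list, the counts were 4 lower and 1 higher of 13 for urea cycle and nitrogen, and 5 lower and 1 higher of 12 for aromatic amino acids and histidine. They were 4 lower of 16 for branched chains and lysine, and 2 lower of 16 for serine, glycine, sulphur amino acids and proline. The last of these shares (12.5%) is near that over all genes. These lists were drawn up with earlier results of these data known.

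Several of these genes adjoin the called ones. In the kynurenine route Kyat1, a kynurenine aminotransferase, fell by 1.43 (limma adjusted p = 0.0164), and Aadat, another one, fell by 1.32 (limma adjusted p = 0.0189), and Qprt, the quinolinate phosphoribosyltransferase, fell by 1.43 (limma adjusted p = 0.00999). Kyat3, a further kynurenine aminotransferase, had a change of 0.40 ± 0.22 and was not called (limma adjusted p = 0.264). Il4i1, an amino acid oxidase that acts on phenylalanine and tryptophan, rose by 1.07 (limma adjusted p = 0.0202). Hao1, which makes the glyoxylate that Agxt removes, fell by 1.97 (limma adjusted p = 0.0149). Gstz1, the isomerase just before Fah, fell by 0.99 (limma adjusted p = 0.0388).

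Nitrogen handling outside the cycle itself moved in both directions. Glul, the glutamine synthetase, had levels of 11.27, 11.47 and 12.10 on WT arrays and 10.48, 10.42 and 10.55 on SRSF3HKO arrays (change -1.13 ± 0.23, limma adjusted p = 0.0216), without overlap. Car5a, the mitochondrial carbonic anhydrase that supplies bicarbonate for carbamoyl phosphate, fell by 2.14 (limma adjusted p = 0.0439). Arg2, the mitochondrial arginase, rose where cytosolic Arg1 was not called. Its WT arrays lay below the floor and its SRSF3HKO arrays at 7.63, 6.74 and 6.18. That is at least 2.84-fold higher when WT is set to the floor. Arg2 passed the floor, a limit on the mean over all arrays, only through its SRSF3HKO arrays. Its call (limma adjusted p = 0.00975) is therefore no separate support for the rise.

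Further along the other branches, Hykk, the hydroxylysine kinase, fell by 2.01 (limma adjusted p = 0.00307) and Sardh, the sarcosine dehydrogenase, fell by 1.75 (limma adjusted p = 0.00375). Ppm1k, the phosphatase that activates the branched-chain keto acid dehydrogenase and so opposes Bckdk, fell by 1.77 (limma adjusted p = 0.0166). Among 7 genes of amino acid synthesis, 1 was called (14.3%, where 11.9% of all genes tested were), the asparagine synthetase Asns, which rose. Of 18 regulators of amino acid catabolism, 4 (22.2%) were called lower and none higher, where 5.03% of all genes tested were lower and 6.85% higher. They were the transcription factors Cebpa (change -1.48 ± 0.33, limma adjusted p = 0.0263), Nr3c1, the glucocorticoid receptor (-0.76 ± 0.18, limma adjusted p = 0.0320), and Ppara (-0.93 ± 0.23, limma adjusted p = 0.0404), and the glucagon receptor Gcgr (-1.18 ± 0.21, limma adjusted p = 0.0132). The hepatocyte factor Hnf4a had a change of -0.18, Cebpb of -0.06 and Foxo1 of -0.03, none of them called. Of the 18 changes, 13 were negative and 5 positive, the highest at 1.04 without a call.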

How the data were processed

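Mouse liver RNA was measured on 3 WT and 3 SRSF3HKO exon arrays. The deposited values are linear intensities per probe set, summarised by the authors with PLIER in Affymetrix Expression Console, per the submitters' processing notes. The number of arrays limits the precision. PLIER can give values near 0, so 16 was added before taking log2.

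Of 229581 probe sets, 208397 were annotated to 1 gene, 3965 to several and 17219 to none, and of 16299 symbols 2124 were updated through RefSeq. Gene levels are medians over single-gene probe sets. The floor is the 90th percentile of the mean level of 1045 receptor genes (log2 5.35 for genes, 5.62 for probe sets). Genes, probe sets and probe set usage (diffSplice, at least 3 probe sets) were tested two-sided with limma 3.58.1 in R 4.3.3. The fits used eBayes and a trend. The procedure was also run on simulated data with equal spread in both groups and reduced probe set noise. The real groups differ in spread, so that run does not check the calls here. All 43 covered genes are named, by branch, with full statistics for called genes. The gene list and all other lists were chosen with earlier results of these data known. Alternatives changed the pseudocount, normalization, gene summary, filter, eBayes settings, array weights, threshold and Y-linked covariate, or left out an array. Figures were drawn with matplotlib 3.10.9.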

Additional observations from a re-analysis of the deposited data

How the results depend on the processing

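No paired analysis was possible because the labels give the arrays no shared numbers. Leaving out 1 array at a time gave 0 to 14 called genes of the 43 (0 to 14 lower, 0 to 2 higher), 244 to 2155 called among all genes, 3 to 24 called among 82 other pathway genes (22 as reported), 3 to 173 called probe sets (138 as reported) and 0 to 4 with changed usage. At an adjusted p under 0.01 the counts were 0 of the 43, 296 of all genes and 5 other pathway genes. With the Y-linked covariate they were 2, 618 and 14, and 47 probe sets. Array weights called 2155 of all genes, no filter 2 probe sets by usage, and the splicing index 0. Median centring gave 726 higher and 691 lower of all genes, against 802 and 589 as reported, and 13 of the 43 lower. Prodh2 and Uroc1 stayed called in 16 of 20 alternatives, Agxt and Aldh4a1 in 10. Leaving out single arrays, the changes ranged from -0.16 to 0.23 for Bckdha, -0.065 to 0.21 for Dbt, -0.19 to 0.27 for Gcdh, -0.24 to 0.019 for Hgd, -0.079 to 0.28 for Hibch, -0.20 to 0.041 for Hpd, -0.11 to 0.29 for Nags, -0.23 to 0.75 for Sds and -0.91 to 0.20 for Tdo2. Bckdha gave -0.041 under median centring. Gcdh gave 0.10 under quantile normalization, 0.030 as a mean, 0.032 by median polish and 0.015 with the covariate. The cause was not tested.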
